A study of Mus musculus with 26 samples.

Results

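The transcripts described here encode the MiT/TFE transcription factors (Mitf, Tfeb, Tfe3 and Tfec), the folliculin complex (Flcn, Fnip1 and Fnip2), the Rag GTPases Rragc and Rragd, and the autophagy receptor p62 (Sqstm1). The genes were found by symbol: all 10 had a row in the adipocyte table and in the table of stromal vascular cells (SVC), of 39017 gene rows in each. RNA sequencing was carried out on both fractions of epididymal fat from male wild type C57BL/6J mice, which entered the diets at 9 to 10 weeks of age. LFD mice received a 10% fat diet for 12 weeks and HFD mice a 60% fat diet for 12 weeks. SW mice received the HFD for 9 weeks and then the LFD for 3 weeks, so they were formerly obese at sampling. Collagenase-digested fat was separated by centrifugation into a floating adipocyte fraction and a pellet of SVC, with no sort for a cell type. Adipocytes were represented by 3 libraries per diet, and SVC by 1 LFD, 2 HFD and 3 SW libraries. The labels do not say whether each library came from 1 mouse, so p-values measure the spread between libraries.

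MiT/TFE proteins are basic helix-loop-helix leucine zipper factors that bind E-box sequences, among them the CLEAR element found at many lysosomal and autophagy genes. When amino acids are plentiful, folliculin with FNIP1 or FNIP2 acts on RagC or RagD at the lysosome surface as a GTPase-activating protein, and the Rag dimer then presents TFEB and TFE3 to the kinase mTORC1, which keeps them in the cytoplasm. When nutrients are short or the lysosome is stressed, calcineurin and loss of that phosphorylation let the factors enter the nucleus. Control of these factors is thus largely exerted on the protein, which transcript levels do not show. MITF is known for its roles in melanocytes, mast cells and osteoclasts, TFEC is largely expressed in macrophages, and p62 carries ubiquitinated cargo to the autophagosome and binds KEAP1, the inhibitor of NRF2.

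Total counts ranged from 5781902 to 23725647 per library. The 2 SVC libraries of HFD mice were unlike each other: mitochondrial genes held 6.34% of the counts in the library numbered 212 and 33.5% in the library numbered 411. Hemoglobin genes held 0.287% of the counts in 212 and 3.09% in 411, against 2.76% to 5.15% in the LFD and SW libraries of SVC. In the adipocyte fraction all 10 adipocyte markers were detected in every diet group, and all 10 were higher than in SVC in SW mice and in HFD mice. Macrophage markers were also present there: none of the 11 was at 0, and their summed level was 489 to 879 CPM in LFD, 6605 to 7852 in HFD and 4464 to 6101 in SW adipocytes. CPM is the count of a gene relative to the effective total of its library (TMM), set within each fraction, and it is not corrected for gene length. In these bulk samples, more cells of a type and more RNA per cell cannot be told apart.

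The RefSeq promoters of the 10 genes (15 start sites, from 250 bases before to 50 after each, GRCm38.p6) were searched on both strands for E-box letters, since these are what MiT/TFE factors bind. The core CACGTG was found at 2 of the genes, Fnip1 and Rragc, and at 8.09% of all 27025 genes with promoters of that length. The windows are shown with the core in capitals. That of Rragc lies at chr4:123917311-123917336, plus strand, with the core starting at -112 from the start site. That of Fnip1 lies at chr11:54438094-54438119, plus strand, with the core starting at -75.
Rragc: tgattccgggCACGTGatagtaccac
Fnip1: agtttgctgcCACGTGatacggctcg
The palindrome TCACGTGA, which contains the core, was found at none of the 10 genes and at 1.12% of all genes. The related CATGTG and TCATGTGA were at none of them, against 15.9% and 1.15% of all genes. A match in this window is a description of letters and not a measured site.

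All 10 transcripts were higher in HFD than in LFD adipocytes, with no overlap between the groups. Of all 14461 genes tested, 26.5% were called higher in this comparison and 32.1% were higher with no overlap. The median log2 fold change was 1.06 for the 10 genes and -0.03 for all genes. Rragd rose 12.9-fold and Tfec 9.27-fold from very low levels, Mitf, Fnip1 and Fnip2 rose 2.59-fold to 3.82-fold, and the other 5 rose 1.43-fold to 1.68-fold. Macrophage marker levels moved with these results, since 10 of the 11 markers rose with a median log2 fold change of 3.02. In the same comparison 4 of 6 fibroblast and progenitor markers rose and 7 of 10 adipocyte markers fell. The part of these cell types in the rises was not tested.

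**Figure D1:**
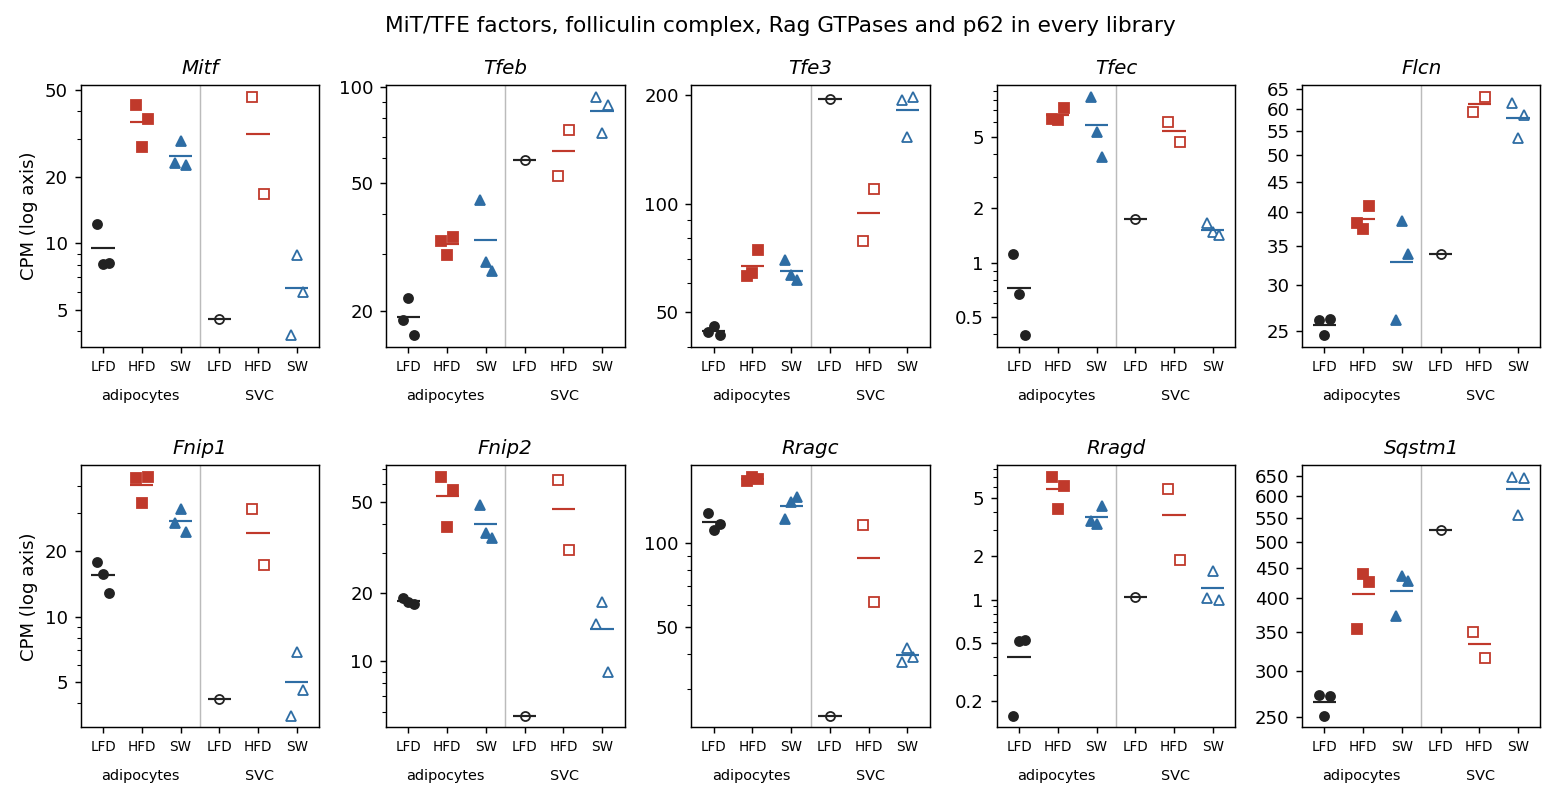
CPM (log axis, a scale of its own for each gene) of the 10 transcripts in every library, by diet group (black circles, LFD; red squares, HFD; blue triangles, SW), with filled symbols for adipocytes, open symbols for SVC and horizontal lines at the group means. Every HFD adipocyte library lies above every LFD adipocyte library for all 10 genes, and the 2 HFD libraries of SVC lie far apart for Mitf (46.6 and 16.8 CPM). CPM was set within each fraction, so levels of adipocytes and SVC are not to be compared here.

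Among the transcription factors, Mitf (chr6:97807052-98021349, plus strand; positions are those of GENCODE M21 on GRCm38) was at 12.2, 8.10 and 8.17 CPM in the 3 LFD libraries. It was at 42.8, 27.4 and 37.1 CPM in HFD and at 23.3, 29.4 and 22.7 CPM in SW adipocytes. Every HFD and SW library exceeded every LFD library. Mitf rose in HFD by 1.93 ± 0.22 on the log2 scale (SE, n = 3 per group; adjusted p = 8.29e-05, by the quasi-likelihood test of edgeR, adjusted after Benjamini and Hochberg). After the switch Mitf was lower than in HFD mice by 0.50 ± 0.20 on the log2 scale, which did not pass (adjusted p = 0.0785, edgeR), with an overlap between the groups. It was still above LFD, with a log2 fold change of 1.44 ± 0.22 (adjusted p = 0.00147, edgeR). Mast cells, which use MITF, were traced by 7 markers with a summed level of 39.6 to 64.1 CPM in LFD, 91.1 to 227 in HFD and 149 to 374 in SW adipocytes. Of these 7 markers, 5 rose between LFD and HFD, and their part in the rise of Mitf was not tested. The 5 melanocyte markers summed to 2.93 to 9.67 CPM over the 9 adipocyte libraries, and Tyrp1 was at 0 in every LFD library.

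Tfec (chr6:16833373-16898441, minus strand) was at the edge of detection in LFD adipocytes, with 7, 13 and 3 counts, or 1.11, 0.671 and 0.396 CPM. The HFD libraries held 6.24, 6.22 and 7.20 CPM, and the SW libraries 8.31, 5.29 and 3.86 CPM. The highest and the lowest of these 6 libraries were both of SW mice. The log2 fold change against LFD was 3.21 ± 0.38 in HFD (adjusted p = 0.000108, edgeR) and 3.02 ± 0.38 in SW mice (adjusted p = 0.000511, edgeR). Tfec passed the filter on low counts through the HFD and SW libraries, so its fold rests on few LFD reads.

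The other 2 factors changed less. Tfeb (chr17:47737030-47792419, plus strand), the best known regulator of lysosome formation, was at 18.7, 22.0 and 16.7 CPM in LFD, 33.1, 29.8 and 34.1 in HFD and 44.4, 28.5 and 26.6 in SW adipocytes. The log2 fold change was 0.75 ± 0.20 between HFD and LFD (adjusted p = 0.00960, edgeR) and 0.78 ± 0.20 between SW and LFD (adjusted p = 0.0225, edgeR). The SW library numbered 407 was the only one of its group above the HFD range. Tfe3 (chrX:7762560-7775202, plus strand), a partner that shares many targets with TFEB, was at 43.9, 45.8 and 43.0 CPM in LFD, 63.0, 63.9 and 74.3 in HFD and 69.5, 63.4 and 61.3 in SW adipocytes. Its log2 fold change was 0.60 ± 0.11 in HFD (adjusted p = 0.00122, edgeR) and 0.55 ± 0.11 in SW mice (adjusted p = 0.00610, edgeR). Tfeb and Tfe3 overlapped between SW and HFD, with log2 differences of 0.029 ± 0.19 and -0.05 ± 0.10. With an offset for transcript length the HFD call of Tfe3 was lost, at a log2 fold change of 0.31 (adjusted p = 0.0694, edgeR).

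In the folliculin complex, both FNIP partners had larger fold changes than folliculin itself, a difference that was not tested. Flcn (chr11:59791408-59810016, minus strand) was at 26.2, 24.6 and 26.2 CPM in LFD, 38.3, 37.4 and 40.9 in HFD and 26.2, 38.6 and 33.8 in SW adipocytes. The HFD libraries lay above all LFD libraries, while the SW library numbered 407 was at the LFD level. Flcn had a log2 fold change of 0.60 ± 0.14 between HFD and LFD (adjusted p = 0.00544, edgeR) and 0.36 ± 0.14 between SW and LFD, which did not pass (adjusted p = 0.107, edgeR). The second difference passed without the SW library 407, at 0.50 (adjusted p = 0.0149, edgeR), and with counts thinned to the smallest library, at 0.42 (adjusted p = 0.0494, edgeR). Fnip1 (chr11:54438199-54518235, plus strand), whose promoter window is shown above, was at 17.9, 15.8 and 12.9 CPM in LFD, 43.5, 33.4 and 43.9 in HFD and 27.0, 31.4 and 24.5 in SW adipocytes. The 3 groups did not overlap, with SW between LFD and HFD. Fnip1 rose by 1.37 ± 0.17 (log2) in HFD (adjusted p = 0.000125, edgeR) and remained higher than in LFD by 0.83 ± 0.17 in SW mice (adjusted p = 0.00692, edgeR). Fnip2 (chr3:79455974-79567796, minus strand) was at 19.0, 18.3 and 17.9 CPM in LFD, 64.5, 38.9 and 56.4 in HFD and 48.7, 36.6 and 34.8 in SW adipocytes. The LFD libraries of Fnip2 were close together and every other library was higher. Its log2 fold change was 1.53 ± 0.20 in HFD (adjusted p = 0.000187, edgeR) and 1.12 ± 0.20 in SW mice (adjusted p = 0.00363, edgeR).

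The paralogous Rag GTPases, which pair with RagA or RagB, were very unequal in level and in change. Rragc (chr4:123917446-123936997, plus strand) was at 128, 111 and 117 CPM in LFD, 167, 172 and 170 in HFD and 121, 140 and 145 in SW adipocytes. HFD stood above both other groups, which overlapped. Rragc rose by 0.51 ± 0.11 on the log2 scale in HFD (adjusted p = 0.00413, edgeR) and stood 0.19 ± 0.11 above LFD in SW mice, which did not pass (adjusted p = 0.281, edgeR). Rragd (chr4:32983037-33022180, plus strand), itself a known MiT/TFE target, had 1, 10 and 4 counts in the LFD libraries, or 0.159, 0.516 and 0.527 CPM. It was at 6.99, 4.22 and 6.08 CPM in HFD and at 3.47, 3.30 and 4.44 CPM in SW adipocytes. All libraries of both groups exceeded the LFD libraries several-fold. Rragd had a log2 fold change against LFD of 3.69 ± 0.37 in HFD (adjusted p = 4.09e-05, edgeR) and 3.07 ± 0.37 in SW mice (adjusted p = 0.000415, edgeR). Like Tfec, Rragd passed the filter through the groups where it was high. When 10 counts were required in every library, these 2 genes were left out. The other 8 were then all called higher in HFD, against 3266 of all 12157 genes tested with that filter.

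Sqstm1 (chr11:50199366-50210827, minus strand) was at 273, 251 and 271 CPM in LFD, 354, 441 and 427 in HFD and 373, 436 and 428 in SW adipocytes. HFD and SW libraries covered the same range, above all LFD libraries. The log2 fold change was 0.62 ± 0.14 in HFD (adjusted p = 0.00447, edgeR) and 0.64 ± 0.14 in SW mice (adjusted p = 0.0112, edgeR). Exons of Sqstm1 overlap those of Mrnip on the other strand, and whether the counting used strand is not given in the sources used here, but Mrnip was at only 1.47 to 2.84 CPM. The gene that overlaps Rragc, 4930535I16Rik, was at no more than 0.0516 CPM in adipocytes.

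The question of the diet switch was whether transcripts raised on HFD returned after 3 weeks on LFD. Between SW and HFD adipocytes, Fnip1 was the only one of the 10 called, at 0.69 times the HFD level (log2 fold change -0.54 ± 0.16, adjusted p = 0.0285, edgeR), while 15.9% of all genes were called lower. Fnip1 and Rragc were lower with no overlap, against 25.2% of all genes. Rragc narrowly missed the threshold with a log2 fold change of -0.32 ± 0.11 (adjusted p = 0.0533, edgeR). Rragd (-0.62 ± 0.28), Fnip2 (-0.41 ± 0.19) and Flcn (-0.24 ± 0.14) had lower means without passing, and Tfec (-0.19 ± 0.29) and Sqstm1 (0.02 ± 0.14) lay within 1 SE of no change. The call of Fnip1 was lost without either of the HFD libraries numbered 401 and 403 or either of the SW libraries numbered 407 and 409, with adjusted p up to 0.0990 (edgeR), and with an offset for GC content or for transcript length. Cell type markers also moved in this comparison, with 7 of 11 macrophage markers (median log2 fold change -0.80) and 3 of 6 fibroblast and progenitor markers lower and 5 of 10 adipocyte markers higher in SW mice, and their part in these differences was not tested. Between SW and LFD adipocytes, 8 of the 10 were called higher, all but Flcn and Rragc, against 10.9% of all genes. The same 8 did not overlap, against 19.1% of all genes. The median log2 fold change of the 10 was 0.80, against 0.00056 for all genes, and 9 of the 11 macrophage markers were also higher in SW than in LFD. These counts and the median include Tfec and Rragd, which passed the filter on low counts through the HFD and SW libraries. When 10 counts were required in every library, Tfec and Rragd were left out. With that filter 6 of the 10 were called higher than in LFD, against 1329 of 12157 genes. The comparisons share the LFD, HFD and SW libraries, so they are not independent of each other. Without any 1 of the 3 LFD libraries 7 were called, with Tfeb lost without 404 or 406 (adjusted p up to 0.0849, edgeR) and Sqstm1 lost without 405 (adjusted p = 0.0552, edgeR).

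**Figure D2:**
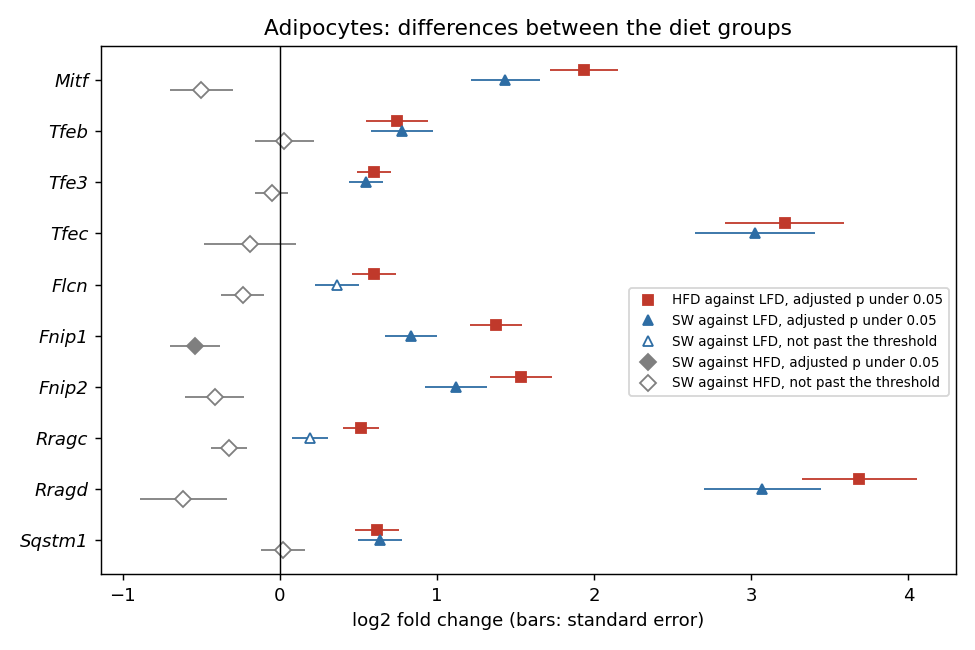
Log2 fold changes of the 10 transcripts in adipocytes (x axis) for HFD against LFD (red squares), SW against LFD (blue triangles) and SW against HFD (grey diamonds), with bars of 1 standard error and filled symbols for adjusted p under 0.05. HFD and SW values lie together for Tfeb, Tfe3, Tfec and Sqstm1, and Fnip1 at -0.54 is the only filled grey symbol.

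Per kilobase of the longest annotated transcript, Sqstm1 was the most abundant of the 10 in every adipocyte group, at 99.1 CPM per kb in LFD mice, 152 in HFD mice and 154 after the switch. Rragc came next, at 40.2, 57.4 and 45.9 CPM per kb. Tfeb, Flcn and Tfe3 followed at 8.17, 7.20 and 6.99 CPM per kb in LFD mice, where Tfeb overlapped Flcn and Flcn overlapped Tfe3. In HFD mice Mitf, Fnip2 and Fnip1 stood at 7.32, 7.30 and 6.44 CPM per kb, each overlapping the next, while Tfec at 1.94 and Rragd at 1.14 were lowest in every adipocyte library. Mitf per kb was thus below each of Tfeb and Tfe3 in all 3 adipocyte groups.

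The genes around these 10 were described from 9 lists. Of all 14461 genes tested, 26.5% were called higher and 3612 lower in HFD than in LFD adipocytes. Of 26 CLEAR network targets, mostly lysosomal enzymes and membrane proteins, 22 were higher in HFD than in LFD adipocytes, with a median log2 fold change of 1.00. The largest rises were those of the lysosomal hydrolases Gla (8.36 ± 2.11 against 61.8 ± 5.76 CPM, SD, n = 3; log2 fold change 2.90) and Gusb (86.0 ± 8.34 against 377 ± 35.6 CPM; log2 fold change 2.13). In SW adipocytes 18 of the 26 were higher than in LFD and 7 were lower than in HFD, against 10.9% and 15.9% of all genes. Of 8 MiT/TFE targets known from macrophages and osteoclasts, 6 were higher and 1 lower in HFD. The lysosomal glycoprotein gene Gpnmb rose from 54.6 ± 40.9 to 2518 ± 470 CPM and the lipid receptor gene Trem2 from 21.1 ± 12.3 to 442 ± 43.5 CPM, whereas Acp5, the tartrate-resistant phosphatase of osteoclasts, fell from 382 ± 72.4 to 205 ± 55.2 CPM. Most genes of the last list are known to be expressed by macrophages, whose markers rose in the same libraries. The part of macrophages in these changes was not tested.

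The rest of the nutrient-sensing machinery did not move in 1 direction, and neither did all genes (26.5% higher and 3612 of 14461 lower in HFD). In the Rag and Ragulator list 7 of 8 genes were tested, all but Rragb, and 2 were higher and 2 lower in HFD (median log2 fold change 0.23). The arginine sensor Slc38a9 (0.80 ± 0.19) and Rraga (0.60 ± 0.16) rose on the log2 scale, and the Ragulator subunits Lamtor4 (-0.77 ± 0.25) and Lamtor2 (-0.74 ± 0.21) fell. Of the 9 genes of mTORC1 and its TSC-Rheb input, 4 were higher and 1 lower (median 0.17), with Rptor, the substrate-binding subunit, at 0.79 ± 0.12, the mTORC1 inhibitor Deptor at 0.66 ± 0.19 and Tsc2 at -0.42 ± 0.11. Of the 15 genes of GATOR, KICSTOR and the amino acid sensors, 2 were higher and 5 lower (median 0.04). Sesn1, a leucine-responsive sestrin, rose by 1.31 ± 0.14 and Depdc5 of GATOR1 by 0.74 ± 0.14, while the arginine sensor Castor1 (-1.35 ± 0.16) and the KICSTOR subunit Kptn (-0.76 ± 0.15) fell. In the list of calcineurin and lysosomal calcium release, 2 of 5 were higher and 1 lower (median 0.04): the regulatory subunit Ppp3r1 (0.57 ± 0.12) and the inhibitor Rcan1 (0.47 ± 0.10) rose and the catalytic subunit Ppp3ca (-0.49 ± 0.14) fell. In SW adipocytes Sesn1 was still above LFD (0.61 ± 0.14) and Castor1 still below it (-0.69 ± 0.16). Both had moved toward LFD, with SW against HFD at -0.70 ± 0.13 (adjusted p = 0.00763, edgeR) and 0.66 ± 0.16 (adjusted p = 0.0138, edgeR). Rptor, Depdc5, Kptn, Rraga, Lamtor2, Lamtor4 and Ppp3r1 were also called between SW and HFD, toward LFD, and were not called between SW and LFD. Slc38a9, Deptor, Tsc2, Rcan1 and Ppp3ca were called in neither comparison.

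Among the relatives of p62, 12 autophagy receptors and ATG8 proteins had 4 genes higher and 2 lower in HFD adipocytes (median log2 fold change 0.17). Of all genes, 26.5% were higher and 3612 of 14461 lower. Wdfy3, an adaptor for aggregates, rose by 1.12 ± 0.20 and the ferritin receptor Ncoa4 by 0.79 ± 0.17, while the ATG8 genes Map1lc3a (-1.09 ± 0.23) and Gabarapl2 (-0.39 ± 0.13) fell. Of the 10 genes of autophagy initiation and conjugation, 3 were higher and 1 lower (median 0.20). Atg14 and Pik3c3, both of the lipid kinase complex that starts autophagosomes, rose by 0.58 ± 0.17 and 0.48 ± 0.12, and Atg16l1 fell (-0.33 ± 0.11). In the NRF2 pathway around p62, 6 of 9 genes were higher and 2 lower (median 0.54). The heme oxygenase gene Hmox1 rose by 2.17 ± 0.21 and the sulfiredoxin gene Srxn1 by 1.58 ± 0.13, while Nqo1 (-0.57 ± 0.21), a common NRF2 target, and Keap1 (-0.38 ± 0.10) fell. Hmox1 and Srxn1 were at the same level in SW as in HFD adipocytes within 1 SE, like Sqstm1. By contrast, Wdfy3, Ncoa4, Pik3c3, Map1lc3a, Gabarapl2 and Nqo1 were called between SW and HFD, toward LFD, and were not called between SW and LFD. Atg14, Atg16l1 and Keap1 were called in neither comparison. Changes of all genes in adipocytes followed transcript length. For HFD against LFD the median log2 fold change was -0.31 in the shortest and 0.19 in the longest of 3 equal classes. For SW against HFD it was 0.38 in the shortest and -0.27 in the longest class. The part of length in the SW and HFD differences of the list genes was not tested. The calls of 8 list genes named here (Atg14, Atg16l1, Deptor, Gabarapl2, Lamtor2, Lamtor4, Nqo1 and Ppp3ca) were lost when at least 1 of the libraries was left out. With the length offset those of Deptor, Gabarapl2, Lamtor2, Lamtor4 and Nqo1 were lost, and with the GC offset that of Keap1. Without a filter the calls of Atg16l1, Gabarapl2, Keap1 and Nqo1 were lost, and that of Nqo1 also with DESeq2 and with thinning.

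**Figure D3:**
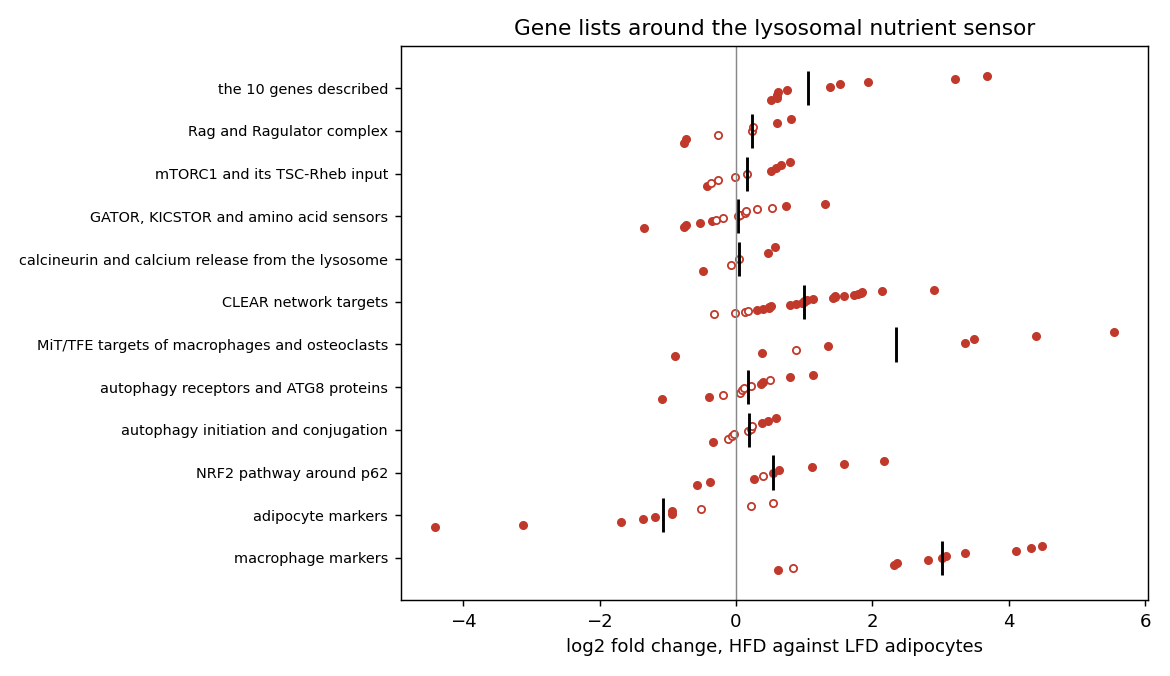
Log2 fold changes between HFD and LFD adipocytes (x axis) for each gene of the lists (points; filled, adjusted p under 0.05; open, not past it), with black lines at the list medians. The 10 genes described (median 1.06) and the CLEAR network targets (median 1.00) lie to the right of 0, the upstream sensors spread to both sides of it, and macrophage markers lie furthest right (median 3.02).

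In SVC, 5 of the 10 transcripts were called lower and 1 higher in SW than in HFD mice, against 11.7% and 5.71% of 16319 genes, and the median log2 fold change was -1.40, against 0.03 for all genes. Mitf was at 46.6 and 16.8 CPM in the HFD and at 3.81, 8.89 and 6.03 CPM in the SW libraries, with a log2 fold change of -2.33 ± 0.53 (adjusted p = 0.0414, edgeR). Fnip1 was at 31.2 and 17.2 against 3.50, 6.86 and 4.60 CPM (log2 fold change -2.26 ± 0.41, adjusted p = 0.0362, edgeR). In both genes the HFD library numbered 212 was the higher one, and neither overlapped with SW. Fnip2 was at 62.6 and 30.7 against 14.5, 18.1 and 8.98 CPM (-1.74 ± 0.42 on the log2 scale, adjusted p = 0.0431, edgeR). Tfec was at 6.03 and 4.69 against 1.65, 1.49 and 1.42 CPM (-1.81 ± 0.41, adjusted p = 0.0405, edgeR). Rragc was at 115 and 61.2 against 37.3, 42.2 and 39.1 CPM (-1.16 ± 0.30, adjusted p = 0.0464, edgeR). These groups did not overlap either, and Rragd, at 5.74 and 1.86 against 1.03, 1.57 and 0.986 CPM, was also without overlap but not called (adjusted p = 0.0988, edgeR).

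Sqstm1 moved the other way in SVC, from 350 and 316 CPM in HFD to 646, 557 and 645 CPM in SW mice (log2 fold change 0.89 ± 0.23, adjusted p = 0.0482, edgeR). Tfe3 was at 78.6 and 110 against 194, 154 and 198 CPM, without overlap and just short of the threshold (0.95 ± 0.25, adjusted p = 0.0507, edgeR). Tfeb, at 52.8 and 73.6 against 93.3, 71.9 and 87.9 CPM, and Flcn, at 59.3 and 63.0 against 61.4, 53.6 and 58.6 CPM, overlapped. The 6 and 2 genes without overlap compare with 30% of all genes lower and 28.5% higher without it.

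These SVC calls were close to the threshold and rested on few libraries. None of the 10 was called without the HFD library numbered 212 or without any 1 of the SW libraries (edgeR; 7 or 8 had an unadjusted p under 0.05 in each case), and 8 were called without the HFD library numbered 411. The calls over all genes moved too: 503 of 15666 genes passed without 212, 6213 of 15888 (39.1%) without 411 and 593 of 16532 without 414. No gene passed without 412 or without 413 (edgeR; 4217 and 5435 genes had an unadjusted p under 0.05). The change also followed base composition: over all genes the median log2 fold change was -1.24 in the lowest and 0.65 in the highest of 3 equal classes of GC content. Fnip1, Tfec, Mitf and Rragd have transcripts of 38.9%, 40.3%, 43.4% and 46.5% GC and belong to the lowest class, while Sqstm1, Flcn and Tfeb, at 54.0%, 54.9% and 63.2%, belong to the highest. With an offset for GC content in each library, none of the 10 and none of all genes were called (edgeR). With that offset 7 of the 10 and 4862 of all genes had an unadjusted p under 0.05 (edgeR). Without it 6949 genes had an unadjusted p under 0.05 and 2849 passed the adjusted threshold (edgeR). Macrophage markers summed to 7481 to 13149 CPM in HFD and 7710 to 12883 CPM in SW libraries of SVC, and 2 of the 11 were lower in SW.

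**Figure D4:**
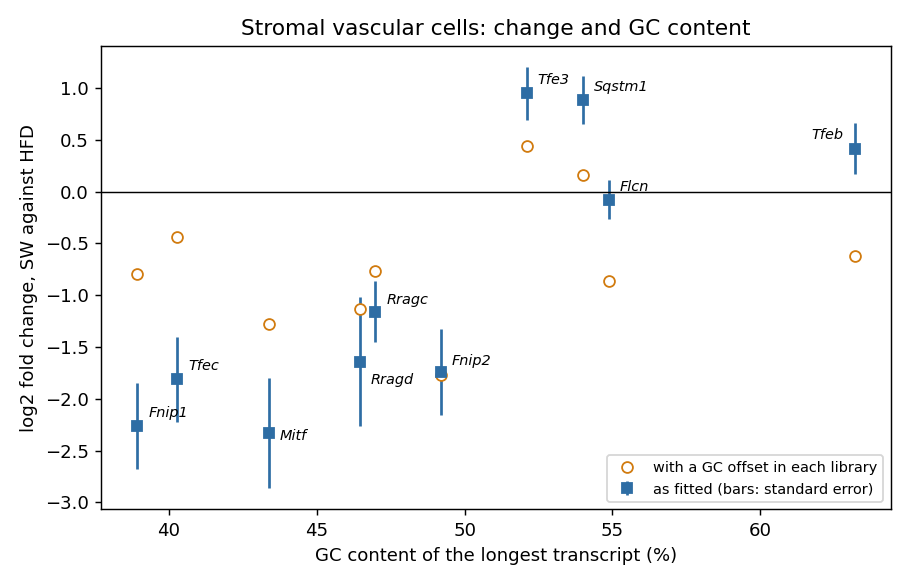
Log2 fold change between SW and HFD SVC (y axis) against the GC content of the longest transcript in percent (x axis) for the 10 genes, as fitted (blue squares, bars of 1 standard error) and with a GC offset in each library (open orange circles). The 6 genes under 50% GC lie between -2.33 and -1.16 as fitted, and the 4 above it between -0.08 and 0.95.

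The single LFD library of SVC has no replicate check and was not tested. It held 4.54 CPM of Mitf, 4.19 of Fnip1, 5.76 of Fnip2, 24.1 of Rragc, 1.75 of Tfec and 1.05 of Rragd, all below both HFD libraries. Tfe3, at 196 CPM, and Sqstm1, at 525 CPM, were above both HFD libraries. Tfeb (59.4 CPM) lay between them, and Flcn (33.9 CPM) lay below both. The share of all genes ordered in these ways was not counted. Mitf, Fnip1, Fnip2, Rragc, Tfec and Rragd have transcripts of 38.9% to 49.2% GC, Tfe3 of 52.1%, Sqstm1 of 54.0% and Flcn of 54.9%. The part of base composition in this order was not tested. For Mitf, Tfe3, Fnip1 and Rragd the LFD value lay within the range of the SW libraries.

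The fractions were compared in 1 fit of all 15 libraries. In SW mice Mitf, Tfec, Fnip1, Fnip2, Rragc and Rragd were higher in adipocytes than in SVC, and Tfeb, Tfe3, Flcn and Sqstm1 were lower, against 32.8% and 35.6% of 17441 genes. Fnip1 was 4.02-fold higher (log2 fold change 2.01 ± 0.26, adjusted p = 1.93e-05, edgeR) and Mitf 2.93-fold higher (1.55 ± 0.35, adjusted p = 0.00163, edgeR). Tfe3 had the largest difference in the other direction, with a log2 fold change of -1.91 ± 0.17, followed by Tfeb at -1.77 ± 0.22 and Flcn at -1.23 ± 0.15. In HFD mice Rragc was higher in adipocytes (0.65 ± 0.20, adjusted p = 0.0277, edgeR), and Tfeb (-1.29 ± 0.23), Tfe3 (-0.82 ± 0.19) and Flcn (-0.97 ± 0.16) were lower, against 12.9% and 16.2% of all genes. Mitf (-0.11 ± 0.37), Fnip2 (-0.10 ± 0.30), Sqstm1 (-0.02 ± 0.17) and Tfec (-0.02 ± 0.35) did not pass between the fractions of HFD mice (values on the log2 scale). The call of Rragc was lost without any 1 of the 3 HFD libraries of adipocytes (adjusted p of 0.0518 to 0.0676, edgeR), with upper-quartile factors and with the GC offset, and its log2 fold change was 0.32 without the SVC library numbered 411 (adjusted p = 0.232, edgeR). That of Tfe3 was also lost without 411, at -0.46 (adjusted p = 0.0873, edgeR). In SW mice the call of Rragd was lost without the adipocyte library 409 or the SVC libraries 412 or 414 (adjusted p up to 0.0792, edgeR). Tfeb, Tfe3 and Flcn were the 3 of the 10 called lower in adipocytes in both diets as fitted. With the GC offset only Tfe3 was, since Flcn lost its call in SW mice and Tfeb in HFD mice. The CLEAR network targets were also lower in adipocytes, 20 of 26 in SW and 13 of 26 in HFD mice, as were 9 and 3 of the 11 macrophage markers. The response to the switch was unequal in the fractions for 6 of the 10, by an interaction test, against 27.1% of all genes, and for 2 of the 10 without the SVC library numbered 212. With the GC offset, 4 of the 10 were called between the fractions in SW mice, beside 57.9% of all genes. These were Fnip2 and Rragc (higher) and Tfeb and Tfe3 (lower). In HFD mice 2 were called, Tfe3 and Flcn (both lower), beside 19.8%. In SW mice Fnip1 then stood at 0.38 (adjusted p = 0.123, edgeR), Mitf at 0.33 (adjusted p = 0.332, edgeR) and Flcn at -0.18 (adjusted p = 0.305, edgeR). Without the offset, the median log2 fold change of all genes in SW mice was 1.34 in the lowest GC class and -1.16 in the highest.

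Across the 15 libraries, the genes most like each factor in log2 CPM differed between the factors. This is a description over libraries that share fraction, diet and base composition, among 12784 genes. Mitf was most like Cers6, Fgd4 and Myo5a (Pearson's r 0.978, 0.978 and 0.975). Tfeb was most like Unc13d, Gsdmd and Engase (r 0.994, 0.991 and 0.991) and Tfe3 like Trp53, Adprh and Shisa5 (r 0.996, 0.995 and 0.995). Tfec was most like Cybb, Runx2 and Sp140 (r 0.970, 0.963 and 0.962), of which Cybb encodes the phagocyte NADPH oxidase. Within the 10 genes, Tfeb and Tfe3 went together (r = 0.954), as did Mitf with Fnip1 (r = 0.930) and Tfec with Rragd (r = 0.896), whereas Tfeb and Mitf did not (r = -0.24). Values this high were common: 1115 of the 12784 genes had r over 0.90 with Tfeb, 1660 with Tfe3, 150 with Mitf and 60 with Tfec.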

How the data were processed

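Poly(A) RNA of adipocytes and SVC was sequenced by the authors (TruSeq libraries, Illumina HiSeq). The deposited values are expected counts per gene that the authors estimated with RSEM after mapping with Bowtie2; they are whole numbers without normalization. The submitters' processing notes name mm9, and tool versions are not given in the sources used here. The labels list 18 libraries in 26 records, 8 with 2 runs. Those 8 have a single-end and a paired-end run, and whether the runs were added is not stated. The layout was uneven over the groups. All SW adipocyte libraries were paired-end only, while some LFD and HFD adipocyte libraries also had a single-end run. All SW libraries of SVC had both, while some HFD and LFD ones were single-end only. The part of the layout in the comparisons was not tested. Column names give a fraction, a diet and a number found in no label. They gave 15 libraries tied to a group but to no mouse, and 3 value columns were not used. Titles call the SW samples LFD fed, and the treatment label was followed. No pair of libraries agreed within counting noise.

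Tests were made with edgeR 4.0.16 (R 4.3.3), with TMM factors, filterByExpr at a minimum count of 10, a robust quasi-likelihood fit and Benjamini-Hochberg adjusted p under 0.05 over all genes. Adipocytes (9 libraries), SVC (6) and both together (15) were fitted separately, with all diet groups and no covariates. The authors named limma, which was used as an alternative (limma-voom, 3.58.1). The others were DESeq2 1.42.0, RLE and upper-quartile factors, different filters, thinning to the smallest library, dropping the groups not compared and dropping each library. Offsets for GC content and transcript length were chosen after seeing the data. The fits were tested on simulated data.

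The 10 genes and the 9 lists were chosen with earlier results of these data known. Of each list, the text names up to 2 of the largest rises and falls between HFD and LFD adipocytes among called genes (average log2 CPM 1 or more), and for each factor the 3 genes of highest correlation. Of the identifiers, 37607 of 39017 are in GENCODE M21 (GRCm38), which gave GC content, lengths and positions. Tables were read and plots drawn in Python 3.11.15 (pandas 2.3.3, matplotlib 3.10.9, numpy 2.4.6).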

Additional observations from a re-analysis of the deposited data

Results flagged for a closer look

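For 6 of the 10 genes, the change between HFD and SW mice differed between the fractions by a test of the difference itself (an interaction term in the edgeR fit of both fractions), against 27.1% of all genes. The values are the change in adipocytes minus that in SVC on the log2 scale. For Mitf the difference was 1.67 (adjusted p = 0.0276), for Fnip1 1.57 (adjusted p = 0.00879), for Tfec 1.52 (adjusted p = 0.0315) and for Fnip2 1.19 (adjusted p = 0.0476). For Tfe3 it was -1.09 (adjusted p = 0.00821) and for Sqstm1 -0.98 (adjusted p = 0.00821). Without the HFD library of SVC numbered 212, 2 of the 10 were called, against 17% of all genes, and without the one numbered 411, 8 were, against 38.5%. With the GC offset none was, against 12.8% of all genes (edgeR; 2 of the 10 had an unadjusted p under 0.05). The call of Fnip2 was lost in 12 of 19 alternatives, among them 8 that left out 1 library, limma-voom and RLE factors, with a value of 0.68 without 212. That of Mitf was lost in 6 of 19, with 0.85 without 212, that of Tfec in 7 of 18, and that of Fnip1 in 2 of 19, with 1.17 without 212. Tfe3 and Sqstm1 lost theirs with the GC offset, as 1 of 19 alternatives each. The part of base composition in the SVC libraries, and that of cell makeup, was not tested.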

How the results depend on the processing

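All 10 rises between LFD and HFD adipocytes kept their direction under every alternative that gave a value (Rragd and Tfec have none where 10 counts were needed in every library), and all but the call of Tfe3 with the length offset kept their side of the threshold. Between SW and HFD adipocytes, DESeq2, RLE factors and thinning called 2 of the 10 and the GC offset 0. Several small differences there changed sign: Tfeb to -0.0203 (limma-voom), -0.0126 (no filter), -0.39 (GC) and -0.0867 (length), Sqstm1 to -0.0230 (no filter), -0.0585 (GC) and -0.0261 (length), Tfe3 to 0.30 and Fnip2 to 0.00733 (length). In SVC, 5226 genes were called by DESeq2, 1557 by limma-voom and 0 with the GC offset, and of the 10 genes 2 by limma-voom and 0 with the GC offset. Tfeb there went to -0.62 (GC) and Flcn to 0.0132 (length). With the GC offset the fractions differed in 4 of the 10 in SW and 2 in HFD mice, with Tfec at -0.0710 in SW and Fnip1 at -0.00128 and Sqstm1 at 0.29 in HFD mice. The interaction then called 2232 genes and 0 of the 10, with Tfeb at 0.13 and Flcn at 0.40. The causes were not tested.

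Leaving out 1 library gave 5757 to 7250 genes (39% to 48.7% of those tested) and 10 of the 10 for HFD against LFD in adipocytes. For SW against HFD it gave 1522 to 4290 genes (10.3% to 29%) and 0 to 3 of the 10. For SW against LFD it gave 1678 to 2176 genes (11.3% to 14.6%) and 7 to 9 of the 10. The SVC comparison gave 0 to 6213 genes and 0 to 8 of the 10. The fractions gave 10690 to 11558 genes and 9 to 10 of the 10 in SW mice, 2528 to 7044 genes and 2 to 4 of the 10 in HFD mice. The interaction gave 2936 to 6622 genes and 2 to 8 of the 10. Signs changed in that way for SW against HFD in adipocytes in Tfeb (-0.23 to 0.16), Tfe3 (-0.11 to 0.0125), Tfec (-0.51 to 0.0351) and Sqstm1 (-0.0814 to 0.0858). In the fractions of HFD mice they changed in Mitf (-0.62 to 0.69), Tfec (-0.11 to 0.0913), Fnip2 (-0.47 to 0.40), Rragd (-0.23 to 1.23) and Sqstm1 (-0.0885 to 0.0764), and in the interaction in Rragd (-0.0572 to 1.49). Where an arm was left with 1 library, it was assumed to vary like the other groups.

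No paired analysis was possible because the column numbers are in no label. Counts of 1 to 13 for Rragd and Tfec in LFD adipocytes, and 1 SVC library of LFD mice, limit what the depth shows.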
